A study of Homo sapiens with 30 samples.

Results

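RGS4, LMO2, CORO1A, CCDC178 and FFAR2 are 5 genes of different families, chosen for a fall of their RNA after interferon-gamma (IFN-γ) in the glioblastoma line U87. The fall did not hold in every group. FFAR2 lay below all untreated libraries only after 3 days, and CORO1A overlapped them after 14 days. All 5 were found by symbol among the 61471 symbols of the U87 expression table and again among those of the U251 table. Because U87 values chose the genes, their levels in U87 are given as a description with no test. Tests were run in the second line, U251, whose values were not part of the choice.

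RGS4 encodes a regulator of G protein signaling, which speeds GTP hydrolysis by alpha subunits of the Gi/o and Gq classes and so shortens signals from their receptors. The RGS4 protein is itself removed quickly through the N-degron pathway. LMO2 is a LIM-only bridging protein of blood and endothelial progenitors, where it joins LDB1, TAL1 and GATA factors into a DNA-binding complex. CORO1A encodes coronin 1A, an actin-binding protein of leukocytes that works on Arp2/3 and cofilin, and FFAR2 encodes a receptor for short-chain fatty acids that couples to Gi/o and Gq proteins. CCDC178 encodes a coiled-coil protein. IFN-γ itself signals through JAK kinases, and its target genes carry DNA elements known as GAS and interferon-stimulated response elements (ISRE).

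RNA-seq was made from U87-MG and U251-MG, established human glioblastoma cell lines that carry the wild-type label and that are listed among misidentified lines and had no STR profile taken after receipt according to the study's methods. Each line had 5 groups. Untreated cells received no IFN-γ, the groups D3, D14 and D28 had IFN-γ in the medium for 3, 14 and 28 days, and for the washout group D28WO it was withdrawn after day 14 and the cells were collected on day 28. The labels place the Untreated cells on day 3 and give the IFN-γ dose as 1 µg/mL in the treatment protocol and as 1 µL/mL in the sample characteristics, whereas the methods give 10 ng/mL and a day 0 sample. Each U251 group held 3 libraries, and so did the U87 groups apart from D3 and D14, which held 2 each because 2 columns of the U87 table share a name and could not be assigned. Replicates are independent cultures according to the methods.

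The values are TPM, a unit of transcript abundance that divides reads by gene length and by the library's sum, so that levels of different genes within a library can be compared. Each library adds up to the same total of TPM, which hides its sequencing depth, and a value of 0 means only that a gene was listed at 0. Between 24223 and 30246 genes were above 0 in a library. In U87, Untreated libraries had 24223 to 25459 such genes and those of the other groups 26096 to 28649, with no overlap. Untreated U251 libraries had 24450 to 27187, below D14 and D28 and overlapping D3 and D28WO. The part of this difference in the changes against Untreated was not tested. A gene was tested where it averaged 0.5 TPM or more over the libraries of a line. FLI1, GNA15 and HCAR3 in U87 and LDB2 and ESAM in U251 were under that level in Untreated cells and entered the tests only through groups in which they were high, so the filter itself partly set the counts that hold them, and those counts are not read as support. With no filter the calls given below for FLI1, GNA15 and LDB2 and those of HCAR3 at D3 and D28 still passed. Changes are differences of log2(TPM + 1), which understate the change of a gene with few TPM. The threshold for a call was an absolute log2 fold change over 1 together with a limma p under 0.05 after Benjamini-Hochberg adjustment over all genes tested in a line. In bulk RNA, fewer cells of a type and less RNA per cell cannot be told apart.

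Promoter windows of 300 bases (250 before to 50 after an annotated start) are shown because IFN-γ acts through short DNA elements. The RefSeq promoter table used here, on GRCh38.p14, gave 10 windows for RGS4, CORO1A, CCDC178 and FFAR2, and none is printed for LMO2. The letters searched on both strands were TTCNNNGAA (GAS), GAAANNGAAA (ISRE core) and TATAAA for the TATA box, which do not overlap in the windows shown, and each match is in capitals. RGS4 has 4 windows, of which the one below holds a GAS and an ISRE match and another holds a TATA box. CCDC178 also has 4 windows, of which the one below and another that overlaps it hold an ISRE match and the other 2 hold none of these letters. The share of G and C was 69.0% in the CCDC178 window shown (42.3% to 77.7% over its 4) and 40.3% in the FFAR2 window.
RGS4 chr1:163069004-163069303: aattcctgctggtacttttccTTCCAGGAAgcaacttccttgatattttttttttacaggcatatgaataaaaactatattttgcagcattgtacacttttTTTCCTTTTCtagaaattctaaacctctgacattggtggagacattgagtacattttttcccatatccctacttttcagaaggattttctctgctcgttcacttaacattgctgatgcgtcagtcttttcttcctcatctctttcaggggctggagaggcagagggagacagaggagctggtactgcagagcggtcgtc
CCDC178 chr18:33440691-33440990: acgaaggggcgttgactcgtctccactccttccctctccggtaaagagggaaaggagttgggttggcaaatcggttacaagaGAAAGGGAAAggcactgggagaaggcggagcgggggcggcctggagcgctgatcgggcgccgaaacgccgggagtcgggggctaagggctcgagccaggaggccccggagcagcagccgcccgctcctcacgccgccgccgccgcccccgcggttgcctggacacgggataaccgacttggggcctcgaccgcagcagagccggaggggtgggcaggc
FFAR2 chr19:35448007-35448306: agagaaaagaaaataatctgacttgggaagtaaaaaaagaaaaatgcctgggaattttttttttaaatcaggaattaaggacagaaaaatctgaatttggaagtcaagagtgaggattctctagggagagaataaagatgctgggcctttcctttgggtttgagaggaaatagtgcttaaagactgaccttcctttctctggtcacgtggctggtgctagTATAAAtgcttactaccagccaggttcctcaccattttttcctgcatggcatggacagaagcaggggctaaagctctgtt
CORO1A chr16:30183352-30183651: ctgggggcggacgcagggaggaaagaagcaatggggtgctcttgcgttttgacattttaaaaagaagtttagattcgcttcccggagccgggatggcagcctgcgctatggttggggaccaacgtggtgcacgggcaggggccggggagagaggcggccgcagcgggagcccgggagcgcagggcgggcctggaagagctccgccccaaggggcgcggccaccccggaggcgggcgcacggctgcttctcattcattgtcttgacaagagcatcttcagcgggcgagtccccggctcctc
The RGS4, FFAR2 and CORO1A windows lie on the plus strand and the CCDC178 window on the minus strand. Of 35116 RefSeq promoter windows of this length, 7.66% held a GAS match, 3.57% an ISRE core match and 11.5% a TATA box. In capitals the RGS4 window has its GAS match first and its ISRE match, read on the other strand, after it. The CCDC178 window has an ISRE match and the FFAR2 window a TATA box, while these letters were not in the CORO1A window. A match is a description of the letters and not of a factor's binding.

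The response to IFN-γ was checked with 9 known target genes, since it bears on how the group labels can be read. IRF1, a transcription factor induced by interferons, had 141.1 ± 3.90 TPM (SD, n = 3) in Untreated U251 cells, and D3 reached 589.1 ± 114.2, D14 300.3 ± 18.4, D28 603.1 ± 61.6 and D28WO 620.1 ± 38.7 TPM. All 9 target genes were past the threshold at D3, D28 and D28WO in U251, and 7 were at D14. In U87, IRF1 had 133.1 ± 2.78 TPM in Untreated cells and 121.9 ± 17.1 in the 2 libraries labelled D14, against 447.7 ± 3.34 in the 2 of D3, 479.7 ± 51.7 for D28 and 509.6 ± 46.5 for D28WO. Of the target genes, 8 were past the threshold in U87 at D3 and also at D28, 9 were at D28WO and 0 at D14. The U87 libraries labelled D14 thus had 0 of the 9 raised by limma although the label gives 14 days of IFN-γ. The median change of the 9 was 0 in that group. Target genes near 0 TPM without IFN-γ may thus have entered the tests only through groups in which they were high. The counts of the 9 therefore describe the labels and are not read as support. Values for D14 and D28WO below are those of the libraries so labelled.

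Markers of other cell types were read beside the 5 genes, because LMO2, CORO1A and FFAR2 are known from blood cells. Of 14 leukocyte markers, 6 were tested in U87 and 7 in U251, and their summed level was 33.9 to 45.9 TPM in Untreated U87 libraries and 57.7 to 89.1 in the treated and washout ones. PTPRC, which defines leukocytes, reached at most 1.47 TPM in a U87 library and 1.36 in a U251 library, and TYROBP was listed at 0 in both lines. In U251 the leukocyte sum was 27.0 to 30.9 TPM in Untreated, 41.1 to 68.5 at D3, D14 and D28, and 22.0 to 28.0 at D28WO. The 8 endothelial markers summed to 39.3 to 51.0 TPM in Untreated U251 libraries against 16.6 to 22.1 at D3, where CDH5 fell from 27.6 ± 3.06 to 0.565 ± 0.0806 TPM. That sum was 33.1 to 45.1 at D14, 23.7 to 25.3 at D28 and 13.4 to 19.4 at D28WO, but CDH5 was the only endothelial marker called lower. ESAM was called higher at D3 and D28, and the median change over the 6 tested was -0.05 (D3), -0.07 (D14), 0.12 (D28) and -0.22 (D28WO). In U87, 3 leukocyte markers and 1 neuron marker were past the threshold as higher in at least 1 group, and 0 of the 5 endothelial markers tested were by limma. In U251, 5 leukocyte markers were higher in at least 1 group and 1 was lower in at least 1, 1 endothelial marker was higher and 1 lower, and 1 neuron marker was higher. Between 1.89% and 12.8% of all genes were called higher in a U87 group and between 4.07% and 11.9% in a U251 group, and between 0.209% and 2.12% and between 1.04% and 4.55% respectively were called lower. These shares are of 1 group each and none was computed over at least 1 group, so the marker counts are not read against them. Of 11 glioma line markers, 3 were higher and 1 lower in U87, and in U251 1 was higher and 4 lower. The glioma line sum in U251 was 4398 to 4436 TPM in Untreated, 2118 to 2539 at D3, 3105 to 3520 at D14, 2252 to 2492 at D28 and 2755 to 2841 at D28WO. GFAP in U251 fell from 1258 ± 46.3 TPM to 341.7 ± 36.6 at D3, 243.4 ± 18.2 at D28 and 572.9 ± 2.42 at D28WO. At D14, 0 of the glioma line markers were called lower in U251, against 3 at each of D3, D28 and D28WO. By limma adjusted p under 0.05 alone, 7 were lower at D14 and 8 at each of the others. The part of these markers in the results below was not tested. The lines themselves expressed VIM, at up to 1459 TPM in U87 and 1161 in U251, while GFAP reached 19.1 TPM in U87 and 1309 in U251 and SOX2 0.41 in U87 and 176 in U251.

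RGS4 had the highest level of the 5 genes in Untreated cells of both lines. In U87 the mean of CORO1A was above that of RGS4 at D3 and D28, and that of LMO2 was above it at D28WO. In U87 its 3 Untreated libraries held 75.8, 74.3 and 68.8 TPM, the D3 libraries 11.1 and 19.5, and the D14 libraries 23.0 and 52.6. The D28 libraries held 14.3, 15.6 and 9.04 TPM and the D28WO libraries 1.97, 4.04 and 8.78. Every treated and washout library was thus below every Untreated library, D14 had the widest spread, and D28WO lay lowest. As a share of the Untreated mean, D3 was at 21.0%, D14 at 51.8%, D28 at 17.8% and D28WO at 6.75%. The D28WO range, with a highest library of 8.78 TPM, did not overlap that of D28, whose lowest was 9.04, but by a small margin.

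In U251, RGS4 stood at 190, 197 and 200 TPM without IFN-γ, at 100.3, 100.1 and 89.3 at D3, and at 159, 189 and 174 at D14. The D28 libraries held 119, 127 and 143 TPM and the D28WO libraries 41.5, 41.8 and 37.8. All 12 libraries of the other groups lay below the Untreated ones, and D28WO was again lowest. Against Untreated, RGS4 was lower at D3 by a log2 fold change of -1.01 ± 0.08 (SE, limma adjusted p = 3.21e-07) and at D28WO by -2.25 ± 0.08 (adjusted p = 1.01e-10), both past the threshold. At D28 the change of -0.59 ± 0.08 had an adjusted p of 4.99e-05 but was under the required size, and at D14 it was -0.17 ± 0.08 (adjusted p = 0.151). The D3 change is close to the size required and missed it without Untreated replicate 3 (-0.99) and without D3 replicate 3 (-0.96), and also after quantile normalization (-0.96). After washout RGS4 was lower than at D28 by -1.65 ± 0.08 (adjusted p = 2.06e-08) and lower than at D14 by -2.07 ± 0.08 (adjusted p = 2.24e-09). The washout value was thus the lowest of both time courses, in 3 of 3 libraries of each line.

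RGS4 lies at chr1:163068775-163076802 on the plus strand (GENCODE 44, GRCh38), and its neighbour RGS5, another regulator of the same class on the minus strand, has its nearer end, which is its 3′ end, 34319 bases away. In U251 the 2 neighbours moved in opposite directions. RGS5 rose from 11.2 ± 4.05 TPM to 41.2 ± 8.19 at D3, 31.0 ± 4.80 at D28 and 27.0 ± 6.98 at D28WO, by 1.83 ± 0.26 (adjusted p = 6.4e-05), 1.44 ± 0.26 and 1.22 ± 0.26 on the log2 scale. In U87, RGS5 had 19.0 ± 3.61 TPM in Untreated cells and 33.2 ± 2.39 at D28WO, with a change of 0.79 ± 0.19 under the required size. HSD17B7, on the other side, was not past the threshold in either line.

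LMO2 was lower than Untreated in U87 and higher in U251. Its U87 libraries held 31.1, 40.4 and 36.2 TPM in Untreated cells, 6.45 and 6.95 at D3, 8.25 and 8.41 at D14, and 6.47, 4.17 and 3.33 at D28. After washout they held 15.3, 16.6 and 18.4 TPM. All treated libraries lay below all Untreated ones, with close replicates, and D28WO lay between D28 and Untreated without touching either. D28 was at 12.97% of the Untreated mean and D28WO at 46.8%. At D14, where the IFN-γ target genes of U87 were not raised, LMO2 was at 23.2%.

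In U251, LMO2 started near the bottom, at 0.50, 0.18 and 1.12 TPM. It held 3.35, 2.699 and 3.24 TPM at D3, 2.40, 2.74 and 1.86 at D14, and 14.4, 10.2 and 10.4 at D28. The D28WO libraries were at 2.03, 3.15 and 1.47 TPM. Every treated and washout library exceeded every Untreated one, and D28 stood apart from all other groups. The rises against Untreated were largest at D28, with 3.01 ± 0.26 (limma adjusted p = 6.94e-07), and were 1.39 ± 0.26 at D3 (adjusted p = 0.000739), 1.09 ± 0.26 at D14 (adjusted p = 0.00907) and 1.02 ± 0.26 at D28WO (adjusted p = 0.00998), all past the threshold. From D14 to D28 it rose by 1.92 ± 0.26 (adjusted p = 0.00014), and D28WO was lower than D28 by -2.00 ± 0.26 (adjusted p = 7.77e-05) and level with D14 within its error (-0.08 ± 0.26, adjusted p = 0.876). The D14 call was lost without Untreated replicate 2 (0.90), and the D28WO call without Untreated replicate 1 (0.99), Untreated replicate 2 (0.82) or D28WO replicate 2 (0.81). After quantile normalization the changes at D3 (0.99), D14 (0.75) and D28WO (0.92) missed the threshold, and so did D28WO (1.02) when only the 2 compared groups were fitted. The libraries labelled D28WO, in which all 9 IFN-γ target genes were past the threshold as higher in both lines, thus had LMO2 above its Untreated level in U251 and below it in U87. The lines came in separate tables and no test was made between them.

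**Figure D1:**
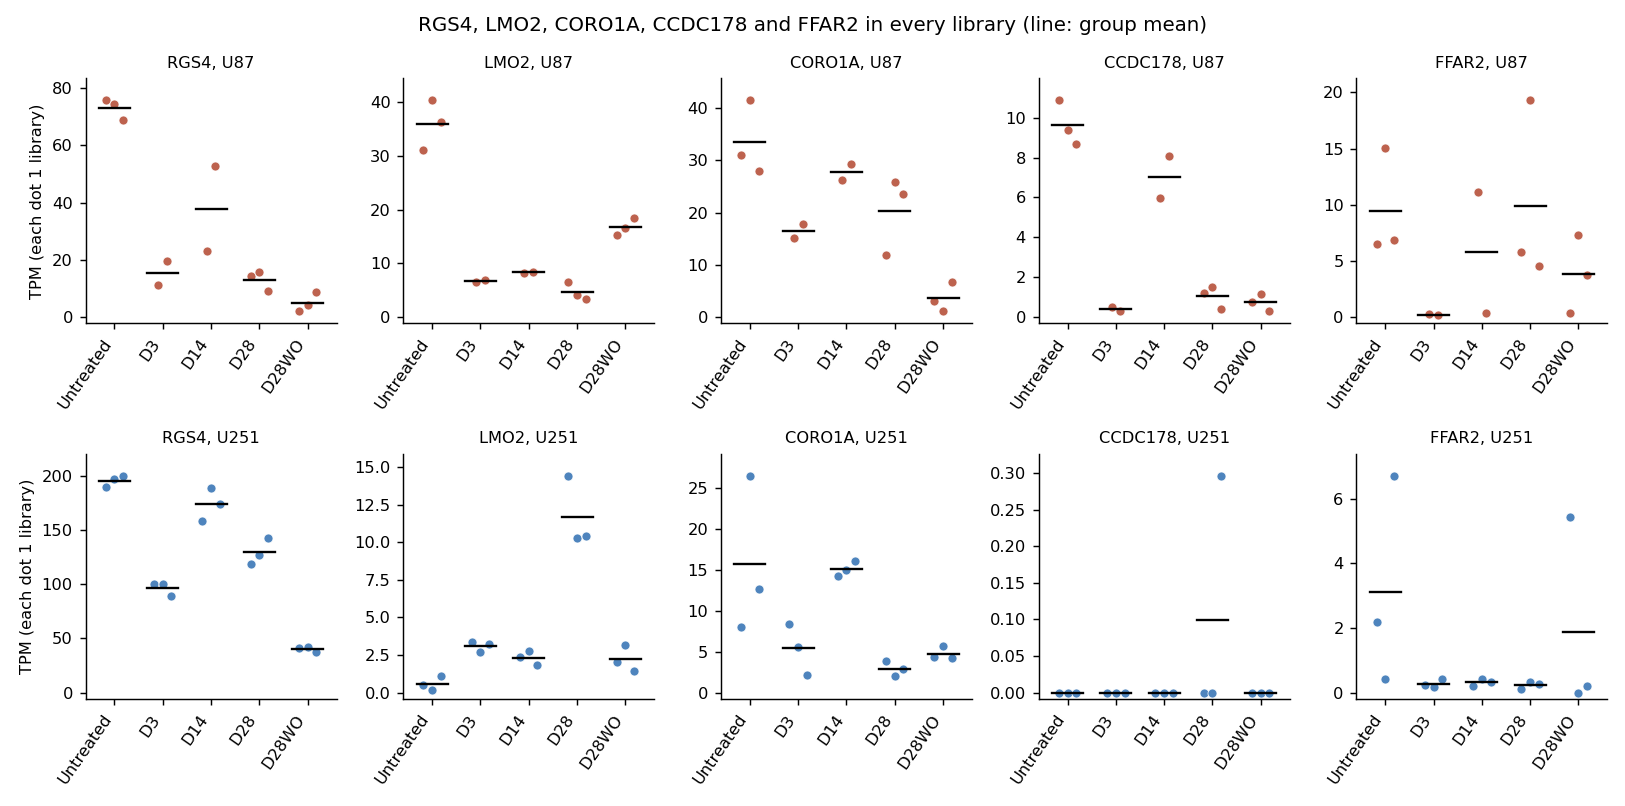
TPM of the 5 genes in each library (dots) with group means (lines), U87 above and U251 below, each panel on its own linear axis from 0. RGS4 was lowest at D28WO in both lines, LMO2 was high in Untreated U87 (31.1 to 40.4 TPM) and highest at D28 in U251 (10.2 to 14.4 TPM), and CCDC178 was listed at 0 in all but 1 U251 library.

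CORO1A, like RGS4, had its lowest U87 values at D28WO. Its U87 libraries held 31.0, 41.5 and 28.0 TPM in Untreated cells, 15.2 and 17.7 at D3, 26.3 and 29.3 at D14, 11.8, 25.8 and 23.6 at D28, and 2.99, 1.15 and 6.76 at D28WO. D3, D28 and D28WO lay below all Untreated libraries, while D14 overlapped them. Against the Untreated mean, D28 was at 60.8% and D28WO at 10.8%. Its D28WO mean of 3.64 ± 2.86 TPM was below the D28 mean of 20.4 ± 7.51, whereas LMO2 was higher at D28WO than at D28.

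CORO1A in U251 held 8.05, 26.5 and 12.7 TPM without IFN-γ, a wide spread. The D3 libraries were at 8.45, 5.64 and 2.19 TPM, D14 at 14.3, 15.01 and 16.1, D28 at 3.86, 2.01 and 2.85, and D28WO at 4.41, 5.69 and 4.28. D28 and D28WO lay below all Untreated libraries, D3 overlapped them in 1 library, and D14 lay inside their range. The gene was lower than in Untreated at D3 by -1.37 ± 0.40 (limma adjusted p = 0.0138), at D28 by -1.97 ± 0.40 (adjusted p = 0.0013) and at D28WO by -1.39 ± 0.40 (adjusted p = 0.0182), all past the threshold. D14 differed from Untreated by 0.10 ± 0.40 (adjusted p = 0.908) and exceeded D3 by 1.46 ± 0.40 (adjusted p = 0.0153). From D14 it fell to D28 by -2.07 ± 0.40 (adjusted p = 0.00209) and to D28WO by -1.49 ± 0.40 (adjusted p = 0.0135). The D3 call rested on single libraries, being lost without Untreated replicate 2 (-0.93) or D3 replicate 3 (-0.93). The D28WO call was lost without Untreated replicate 2 (-0.95), D28WO replicate 1 (-1.34) or D28WO replicate 3 (-1.33), and the D14 to D3 difference without D3 replicate 3 (1.03). Fitted with only the 2 compared groups, the D3 and D28WO changes and the D14 to D3 difference did not pass, at the same sizes. In both lines, D14 was the group of CORO1A that overlapped Untreated most.

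CORO1A lies at chr16:30182827-30189076 on the plus strand, and the antisense gene CORO1A-AS1 overlaps it on the other strand. CORO1A-AS1 was listed at 0 in every U87 library. In U251 it reached 10.1 TPM in a D14 library (group mean 3.60 ± 5.61) and 1.14 in a D28 library. It was listed at 0 in the Untreated, D3 and D28WO libraries. Since the strand setting of the counting is not given, reads of the pair cannot be told apart, which bears on the D14 comparisons of CORO1A in U251. The next gene tested, BOLA2B, has its nearer end 3856 bases away and has a near-identical copy, so its values are uncertain. BOLA2B was lower at D28WO in U87 by -1.07 ± 0.21 (adjusted p = 0.0016), a call lost without Untreated replicate 3 (-0.87) or D28WO replicate 1 (-0.99) and with array weights (-0.96), and was not past the threshold in U251.

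CCDC178 was present in U87 and nearly absent from U251. In U87 its libraries held 10.9, 9.38 and 8.68 TPM in Untreated cells, 0.50 and 0.32 at D3, 5.96 and 8.09 at D14, 1.21, 1.51 and 0.41 at D28, and 0.73, 1.18 and 0.32 at D28WO. All other groups lay below Untreated, but D14 came close to it, at 72.8% of its mean against 4.22% at D3, 10.8% at D28 and 7.68% at D28WO. D28 and D28WO overlapped. In U251 it was listed at 0 in 14 of 15 libraries, with 0.30 TPM in D28 replicate 3, and it was not tested there. The gene spans chr18:32937402-33441101 on the minus strand, and of its neighbours GAREM1 rose in U251 at D3 by 1.62 ± 0.16 (adjusted p = 3e-06) and at D28 by 1.03 ± 0.16, and in U87 at D28WO by 1.08 ± 0.30 (adjusted p = 0.013). The U251 D28 call of GAREM1 was lost without Untreated replicate 1 (0.91) or D28 replicate 1 (0.99), and its U87 call without Untreated replicate 3 (0.91) or D28WO replicate 3 (0.95). After quantile normalization both calls were lost (0.56 and 0.54), and likewise with median-ratio size factors (0.93 and 0.88). NOL4, on the other side in U87, was lower at D28WO by -1.12 ± 0.37 (adjusted p = 0.03), from 1.45 ± 0.408 TPM to 0.127 ± 0.186, a call lost without Untreated replicate 2 (-1.01) or 3 (-1.11) or D28WO replicate 1 (-1.07) or 2 (-1.04).

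FFAR2 varied most between replicates. Its U87 libraries held 6.53, 15.03 and 6.85 TPM in Untreated cells, 0.26 and 0.13 at D3, 11.1 and 0.39 at D14, 5.75, 19.3 and 4.56 at D28, and 0.34, 7.29 and 3.76 at D28WO. Only the D3 libraries lay below all Untreated ones, at 2.06% of the Untreated mean, and each of D14, D28 and D28WO overlapped Untreated. The D28 mean was 104% of the Untreated mean. The label of a gene that falls in U87 thus held for FFAR2 at D3 and not for the later groups. Without D14 replicate 3 the fitted D14 change turned from -1.26 to 0.30.

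In U251, FFAR2 stood at 2.20, 0.41 and 6.71 TPM in Untreated cells, between 0.17 and 0.42 at D3, between 0.20 and 0.43 at D14, and between 0.11 and 0.34 at D28. The D28WO libraries held 5.45, 0 and 0.20 TPM. D28 lay below all Untreated libraries, while D3 and D14 overlapped with the lowest Untreated library, and D28WO rested on a single high library. Fitted changes against Untreated were -1.41 ± 0.64 at D28 (limma adjusted p = 0.095), -1.36 ± 0.64 at D3 (adjusted p = 0.106), -1.30 ± 0.64 at D14 (adjusted p = 0.172) and -0.72 ± 0.64 at D28WO (adjusted p = 0.457), none past the threshold. Without D28WO replicate 1, the changes at D3 (-1.36), D28 (-1.41) and D28WO (-1.58) passed it, and without Untreated replicate 2 those at D3 (-1.96) and D28 (-2.01) did. With all D28WO libraries left out of the fit, the changes at D3 (-1.36) and D28 (-1.41) passed it too. The D28 change also passed it after quantile normalization (-1.87). FFAR2 lies at chr19:35443907-35451767 on the plus strand. Both neighbours rose in U251. CD22, an inhibitory receptor of B cells, rose from 0.575 ± 0.502 TPM to 8.15 ± 2.24 at D28 (2.57 ± 0.48, adjusted p = 0.00077). DMKN, a secreted epithelial protein, rose from 3.86 ± 0.662 to 28.15 ± 5.89 TPM at D28 (2.57 ± 0.34, adjusted p = 4.4e-05). In U87, DMKN rose from 38.4 ± 10.46 to 122 ± 10.2 TPM at D28 (1.68 ± 0.35, adjusted p = 0.0061). Its U87 call at D28WO (1.08 ± 0.35, adjusted p = 0.027) was lost without Untreated replicate 3 (0.84), D28WO replicate 2 (0.96) or D28WO replicate 3 (0.91), after quantile normalization (0.86), with array weights (0.97), with median-ratio size factors (0.85) and with no filter. CD22 was not past the threshold in U87.

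Across U251, 4 of the 5 genes were tested, CCDC178 being below the mean of 0.5 TPM required. At D3, 2 of them (RGS4 and CORO1A) were past the threshold as lower, where 4.55% of the 23667 genes tested were, and LMO2 as higher, where 9.72% were. D14 had LMO2 alone as higher, against 4.72% of all genes, with 1.04% lower. At D28, CORO1A was lower (3.35% of all genes) and LMO2 higher (11.9%), and at D28WO RGS4 and CORO1A were lower (3.38%) and LMO2 higher (4.07%). Between treated groups, D14 against D3 had CORO1A as higher (3.19%, with 3.29% lower), and D28 against D14 had LMO2 as higher (4.23%) and CORO1A as lower (1.6%). D28WO against D28 had RGS4 and LMO2 as lower (8.14%, with 1.12% higher), and D28WO against D14 had RGS4 and CORO1A as lower (5.38%, with 1.78% higher). These comparisons share groups, so their counts are not independent. With so few genes, the counts are given beside the shares and nothing further is read from them.

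The U87 changes are fitted values of the contrasts that chose the genes. Of all 22918 genes tested, 2.12% were past the threshold as lower at D28WO, 0.611% at D28, 0.209% at D14 and 0.384% at D3. RGS4 was at -2.23 ± 0.46, -1.04 ± 0.46, -2.44 ± 0.41 and -3.81 ± 0.41 at D3, D14, D28 and D28WO, and LMO2 at -2.25 ± 0.22, -1.98 ± 0.22, -2.74 ± 0.20 and -1.05 ± 0.20. CCDC178 was at -2.92 ± 0.32, -0.42 ± 0.32, -2.42 ± 0.29 and -2.64 ± 0.29. CORO1A was at -0.97 ± 0.45, -0.24 ± 0.45, -0.74 ± 0.40 and -3.07 ± 0.40, and FFAR2 at -3.04 ± 0.92, -1.26 ± 0.92, -0.10 ± 0.82 and -1.39 ± 0.82. The median of all genes was itself above 0, at 0.20, 0.15, 0.19 and 0.25 in U87 and 0.13, 0.096, 0.16 and 0.015 in U251, in the same order of groups. Relative to that median, LMO2 in U251 was higher by 1.26, 1.00, 2.85 and 1.00, and RGS4 by -1.14, -0.27, -0.76 and -2.26.

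**Figure D2:**
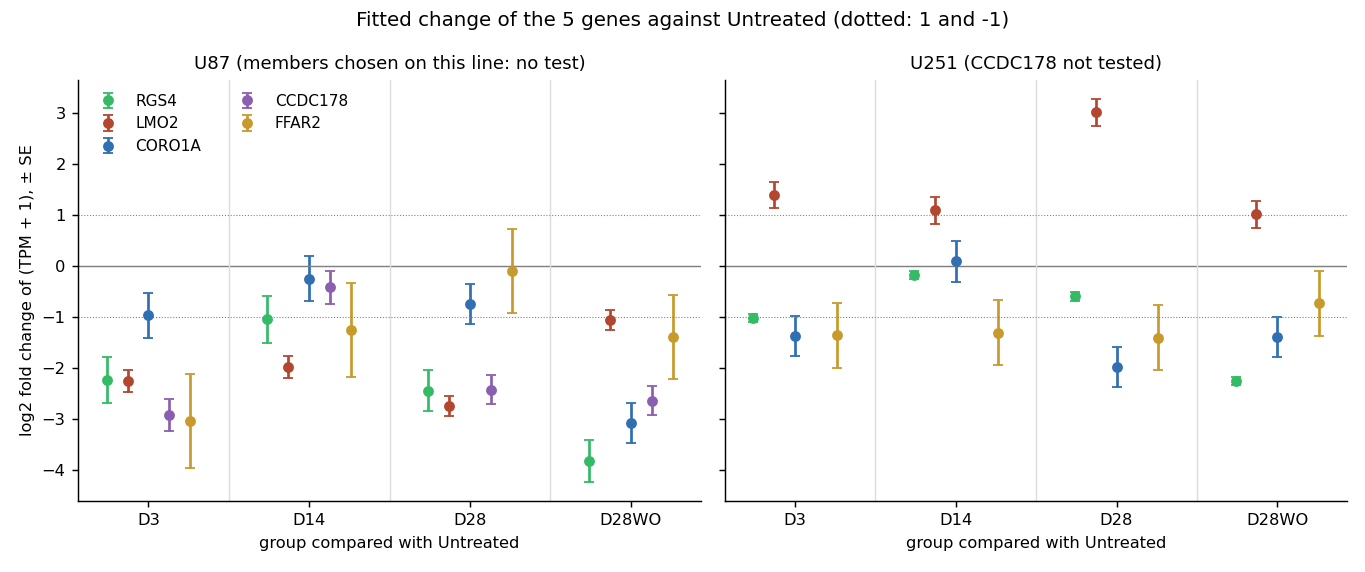
Fitted log2 fold change of (TPM + 1) against Untreated with its SE for each gene and group, U87 left as a description and U251 right with tests. LMO2 lies below 0 in U87 and above 0 in U251 in each group (3.01 at D28), whereas RGS4 is below 0 throughout, down to -3.81 in U87 and -2.25 in U251.

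The other RGS genes were read beside RGS4. Of the 19 others, 12 were tested in U87 and 13 in U251, and 5 in U87 and 7 in U251 passed the threshold in at least 1 group against Untreated. All 5 of U87 were higher, and of the 7 in U251, 6 were higher and RGS20 was lower. Calls over all genes were also mostly higher, with 12.8% higher and 2.12% lower at D28WO in U87 and 11.9% higher and 3.35% lower at D28 in U251. These shares are of 1 group each. The share of all genes called in at least 1 group was not computed and is at least as large. The counts over at least 1 group are therefore not read against them. The median over the tested RGS genes was 0.27 at D28 in U87 and 0.35 in U251, beside 0.19 and 0.16 over all genes. In U251 it was under the median of all genes in the other groups. There it was 0.0087 beside 0.13 at D3, 0.036 beside 0.096 at D14 and 0.012 beside 0.015 at D28WO. In U87 it was above that of all genes in each group. At D28WO, 3 RGS genes were higher in U87, and at D28 in U251 the count was 5. RGS9 (0.85), RGS7 (0.65), RGS11 (0.50) and RGS17 (0.70) missed the threshold at D28 in U251 after quantile normalization. With median-ratio size factors RGS9 (0.95), RGS7 (0.94) and RGS11 (0.95) did so. RGS16, which acts on the same alpha subunits as RGS4, had the largest change, from 1.14 ± 0.142 TPM to 22.9 ± 1.33 at D28WO in U87 (3.48 ± 0.33, adjusted p = 1.1e-05), the group in which RGS4 was lowest. In U251, RGS16 stayed between 1.75 and 2.45 TPM in group means, with no call.

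RGS7, a member of the neuronal R7 class, rose in U87 at D28WO from 1.45 ± 0.654 to 9.90 ± 1.06 TPM (2.18 ± 0.29, adjusted p = 0.00013) and in U251 at D14 from 5.84 ± 0.676 to 20.0 ± 3.68 TPM (1.61 ± 0.15, adjusted p = 7.2e-06) and at D28 (1.04 ± 0.15). The U251 D28 call of RGS7 missed the size required without Untreated replicate 1 (0.99), D28 replicate 1 (0.99) or D28 replicate 2 (1.00). RGS14 rose in U87 from 6.86 ± 0.480 TPM to 20.2 ± 4.63 at D3 (1.42 ± 0.29, adjusted p = 0.0075) and to 25.3 ± 6.91 at D28 (1.71 ± 0.26, adjusted p = 0.00088), the D3 call being lost without D3 replicate 3 (1.19) and after quantile normalization (0.99). RGS9, of the same R7 class, was higher in U87 at D3 (1.15 ± 0.34), D28 (1.54 ± 0.30, adjusted p = 0.0046) and D28WO (1.11 ± 0.30). The D3 call of RGS9 was lost when Untreated replicate 1 or 3, either D3 library, either D14 library or any D28WO library was left out (0.93 to 1.32), and its D28WO call without Untreated replicate 1 (0.94) or 3 (0.88). After quantile normalization RGS9 missed the threshold in U87 at D3 (0.68) and D28WO (0.54), and with only the 2 compared groups fitted it did so at D3, D28 and D28WO, at the same sizes. The D3 call was also lost with a replicate block (1.097), with no filter, and with median-ratio size factors (1.04), and the D28WO call with those factors (0.96).

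RGS11 in U251 was higher at D14 (1.24 ± 0.36, adjusted p = 0.024) and D28 (1.03 ± 0.36). The D14 call of RGS11 was lost without Untreated replicate 1 (1.22) or 3 (1.15) or D14 replicate 3 (0.81), after quantile normalization (0.94), and at the same size with no filter or with only the 2 compared groups fitted. Its D28 call was lost without Untreated replicate 1 (1.01) or 3 (0.93) or D28 replicate 2 (0.97) or 3 (0.84), with array weights (0.98), and at the same size with no filter. RGS20 was lower at D3, from 18.8 ± 1.91 to 7.44 ± 0.410 TPM (-1.23 ± 0.27, adjusted p = 0.0026). In Untreated U87 cells RGS20 had 116 ± 4.87 TPM, above RGS4 with 73.0 ± 3.70, and it was not past the threshold there.

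**Figure D3:**
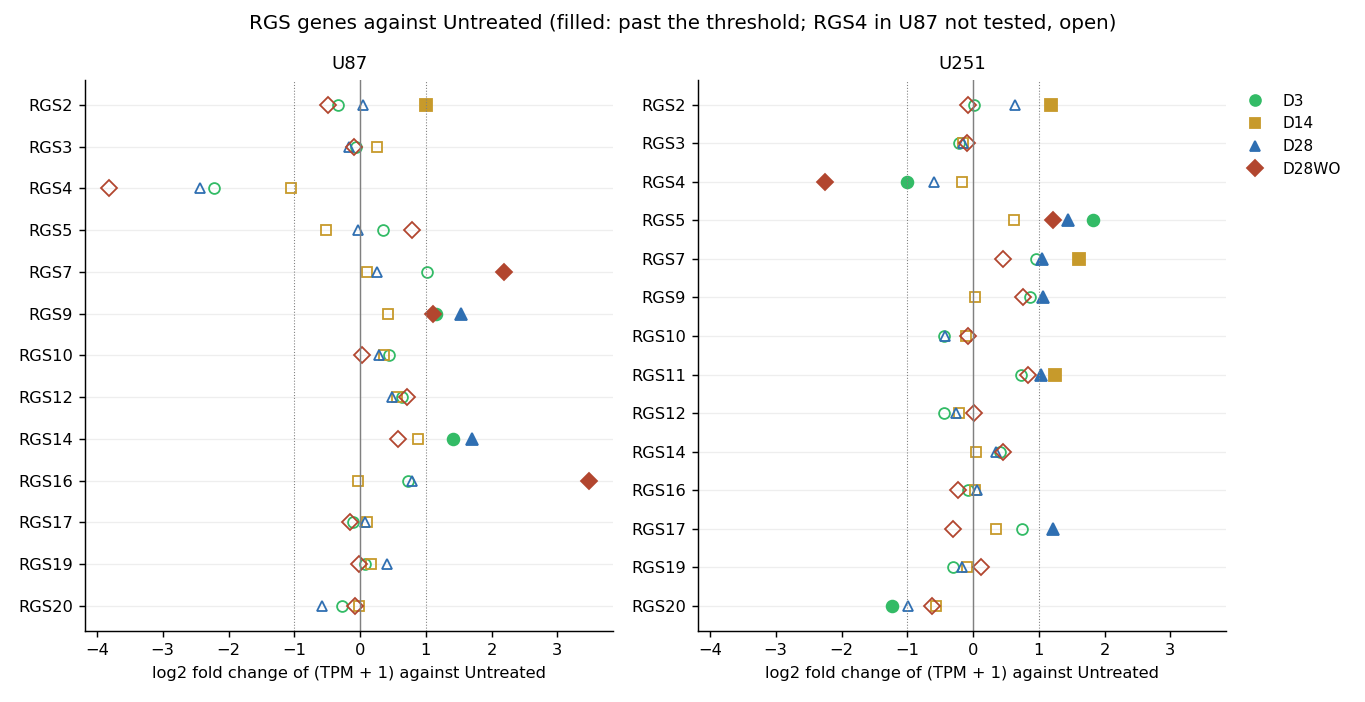
Log2 fold change of (TPM + 1) against Untreated for RGS4 and each RGS gene tested, by group (symbols), U87 left and U251 right. Filled symbols passed the threshold. RGS4 lies at the left edge (-3.81 in U87, -2.25 in U251 at D28WO) and RGS16 at the right edge in U87 (3.48).

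Of the genes that RGS4 acts with or that remove its protein, 2 in U87 and 1 in U251 passed the threshold. Of 9 alpha subunits of the Gi/o and Gq classes, 8 were tested in each line. GNA15, a Gq-class subunit of blood cells, was higher in U87 at D28WO, from 0.499 ± 0.104 to 2.65 ± 0.676 TPM (1.27 ± 0.35, adjusted p = 0.013), where 12.8% of all genes were, and missed the size after quantile normalization (0.74). GNAO1, the Go subunit, was lower in U251 at D28, from 6.26 ± 3.58 to 2.26 ± 0.770 TPM (-1.04 ± 0.37, adjusted p = 0.035), where 3.35% of all genes were. That call of GNAO1 was lost without Untreated replicate 1 (-0.69) or 2 (-0.95) or D28 replicate 1 (-0.88) or 2 (-1.03), and at the same size with no filter or with only the 2 compared groups fitted. In the N-degron branch, all 5 genes were tested in each line, and UBR2, a ubiquitin ligase that recognizes N-degrons, was higher in U87 at D28WO, from 8.78 ± 0.630 to 22.6 ± 1.13 TPM (1.27 ± 0.12, adjusted p = 8.5e-06), a size missed after quantile normalization (0.80). In U251, UBR2 had a change of 0.79 ± 0.08 at D3 (adjusted p = 1.8e-06), under the size required.

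LMO2's relatives and partners were tested in the same way. In U87, 2 of the other 3 LIM-only genes passed the threshold, both at D28WO, where 12.8% of all genes were higher and 2.12% lower. LMO4, the widely expressed LIM-only gene, rose from 52.3 ± 6.99 to 122 ± 8.69 TPM (1.21 ± 0.13, adjusted p = 2.7e-05), a size missed with median-ratio size factors (0.98). LMO1 fell from 4.52 ± 2.45 to 0.842 ± 0.470 TPM (-1.5003 ± 0.42, adjusted p = 0.013), a call lost without Untreated replicate 2 (-1.21) or D28WO replicate 3 (-1.31). None of these 3 passed the threshold in U251, where LMO4 had a D28 change of 0.44 ± 0.06 (adjusted p = 6.7e-05).

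Of 17 partners of the LMO2 complex, 15 were tested in U87 and 13 in U251, and 3 of the 15 and 1 of the 13 passed the threshold in at least 1 group. In U87 2 were higher at D28 (6.77% of all genes), and 1 was higher and 1 lower at D28WO (12.8% and 2.12%). GATA3, a zinc finger factor that LMO2 can bridge, was higher in U87 at D28WO, from 4.91 ± 3.03 to 28.8 ± 1.01 TPM (2.47 ± 0.40, adjusted p = 0.00045). The D28 rise of GATA3 (1.39 ± 0.40, adjusted p = 0.026) was lost without Untreated replicate 1 (1.403) or 3 (1.00) or D28 replicate 1 (1.03) or 3 (1.33), after quantile normalization (0.93), with array weights (1.14), and at the same size with no filter, with only the 2 compared groups fitted or with all D28WO libraries left out. The ETS factor ERG was lower in U87 at D28WO, from 2.77 ± 0.345 to 0.770 ± 0.522 TPM (-1.13 ± 0.25, adjusted p = 0.0033), a call lost without D28WO replicate 2 (-0.95). Its relative FLI1 was higher in U87 at D28, from 0.0866 ± 0.0298 to 1.52 ± 0.990 TPM (1.13 ± 0.34, adjusted p = 0.032), a treated group through which it came to be tested, and a call lost without any of the 3 Untreated libraries or without D28 replicate 1 or 2 (0.85 to 1.15), after quantile normalization (0.63), and at the same size with a replicate block or with only the 2 compared groups fitted. In U251, LDB2, a LIM-domain-binding cofactor, rose from 0.0753 ± 0.130 TPM to 1.73 ± 0.0705 at D3 (1.35 ± 0.27, adjusted p = 0.0012) and 1.68 ± 0.163 at D28 (1.32 ± 0.27, adjusted p = 0.0015), the groups through which it came to be tested. It was the only partner past the threshold there, where 9.72% of all genes were higher at D3 and 11.9% at D28, and its D28 call was lost after quantile normalization (0.90).

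Among coronins, all 6 others were tested in both lines. CORO2B, a brain-enriched coronin, was lower in U87 at D28, from 81.2 ± 2.11 to 39.4 ± 5.20 TPM (-1.03 ± 0.09, adjusted p = 1.8e-05), where 0.611% of all genes were lower, and the size was missed without D28 replicate 3 (-0.94). CORO6 was higher at D14 in U87, as 1.89% of all genes were, from 6.98 ± 1.19 to 20.3 ± 0.326 TPM (1.43 ± 0.27, adjusted p = 0.017), a call lost without Untreated replicate 3 (1.32) or D14 replicate 2 (1.41) or 3 (1.44) or with only the 2 compared groups fitted. In U251 no other coronin passed the threshold, with CORO2B at -0.98 ± 0.12 at D14 (adjusted p = 8.4e-05). Of 17 genes of the Arp2/3 complex and the cofilin pathway, all tested in both lines, the kinase LIMK2, which inactivates cofilin, was higher in U87 at D28WO, from 32.4 ± 3.47 to 66.3 ± 2.48 TPM (1.02 ± 0.11, adjusted p = 2.7e-05). This was 1 of 17 genes called, where 12.8% of all genes were higher. That size was missed without Untreated replicate 3 (0.93) or D28WO replicate 3 (0.99), with median-ratio size factors (0.78), with array weights (0.98) and after quantile normalization (0.76). None of them passed the threshold in U251. The median over this list was -0.18 at D3 and -0.16 at D28 in U87, beside 0.20 and 0.19 over all genes.

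FFAR2 has relatives among receptors for metabolites, of which 3 of 9 were tested in U87 and none in U251. All 3 passed the threshold as higher at D3, D28 and D28WO, where 5.85%, 6.77% and 12.8% of all genes did, and none did at D14. HCAR3 was tested only through the groups in which it was high, so the count of 3 is not read against these shares. HCAR2, the receptor for niacin and beta-hydroxybutyrate, held 1.44 ± 0.517 TPM in Untreated U87 cells, 18.9 ± 5.09 at D3 (3.03 ± 0.33, adjusted p = 0.00012), 11.2 ± 3.39 at D28 (2.30 ± 0.30, adjusted p = 0.00028) and 4.59 ± 1.61 at D28WO (1.18 ± 0.30). HCAR3, its near-identical copy, had the same order, from 0.181 ± 0.313 to 8.32 ± 0.773 TPM at D3 (3.01 ± 0.39, adjusted p = 0.00047), and counting could split reads between the pair. The D28WO call of HCAR2 was lost without Untreated replicate 2 (1.00) or D28WO replicate 3 (0.97), and that of HCAR3 (1.01 ± 0.35) without Untreated replicate 2 (0.90) or 3 (0.90) or D28WO replicate 2 (0.98) or 3 (0.76). After quantile normalization both missed the size at D28WO, with HCAR2 at 0.59 and HCAR3 at 0.72. HCAR3 also missed the threshold there with median-ratio size factors (0.95), with array weights (0.89), with a replicate block, with no filter and with only the 2 compared groups fitted. GPR84, a receptor for medium-chain fatty acids, was highest after washout, with 1.82 ± 1.15 TPM in Untreated cells, 13.9 ± 4.28 at D3 (2.45 ± 0.34, adjusted p = 0.00069), 9.5003 ± 1.41 at D28 (1.97 ± 0.30, adjusted p = 0.00096) and 60.1 ± 4.10 at D28WO (4.52 ± 0.30, adjusted p = 7.8e-07). Its D3 call was lost with only the 2 compared groups fitted, at the same size. At D3, FFAR2 was thus at its lowest in the same libraries in which these 3 were raised. A test of the difference between FFAR2 and the others was not made, since FFAR2 was chosen on these values.

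**Figure D4:**
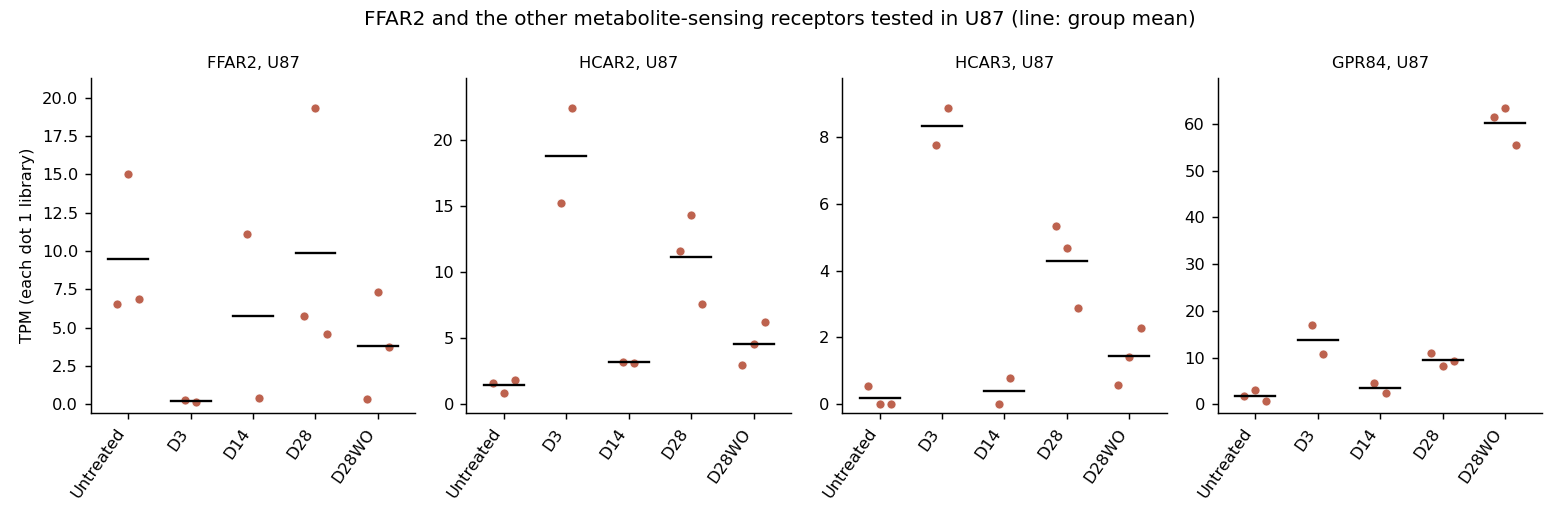
TPM of FFAR2, HCAR2, HCAR3 and GPR84 in each U87 library (dots) with group means (lines), each panel on its own linear axis. FFAR2 is near 0 in both D3 libraries (0.26 and 0.13 TPM) where HCAR2 averages 18.9 and HCAR3 8.32 TPM, and GPR84 is highest at D28WO (60.1 TPM).

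The 5 genes were not alike in their course over the 13 U87 libraries, which share the line and its time points. Pearson's r of log2(TPM + 1) between RGS4 and CORO1A was 0.84 and between RGS4 and CCDC178 0.83, while LMO2 and CORO1A had -0.02. Over the 15 U251 libraries LMO2 and CORO1A had -0.67 and RGS4 and CORO1A 0.53. The genes whose course was most like each of the 5 are named with no p. RGS4 was followed by EFNB2 (0.99), a ligand of Eph receptors with 82.6 ± 3.50 TPM in Untreated cells and 43.9 ± 5.41 at D28WO, and SHROOM2 (0.97) in U87, and by ITGB5 (0.97) and CFAP95 (0.97) in U251. LMO2 was followed by the RNA-binding protein CELF2 (0.94) and by CORO2B (0.94) in U87, and by VGLL2 (0.97) and the drug transporter ABCG2 (0.96) in U251. VGLL2 had group means of 0.523, 3.17, 2.45, 10.97 and 1.47 TPM in U251, in the order Untreated to D28WO. It ranked the groups as LMO2 did, which follows from its choice by r. ABCG2 had 0.44 TPM in Untreated U251 cells and entered the tests only through groups in which it was high. CORO1A was followed by EBP (0.98), an enzyme of cholesterol synthesis, and CDCA4 (0.98) in U87, and by SNX4 (0.92) and the integrin ITGA4 (0.90) in U251. CCDC178 was followed in U87 by CNIH3-AS2 (0.96) and the GABA receptor subunit GABRQ (0.95). FFAR2 had no such close course, with CHP1 (0.81) and ACTG1P15 (0.80) in U87 and ACTR3B (0.84) and ENSG00000236140 (0.83) in U251.

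The remaining neighbours on the chromosomes are given as measured. LMO2 lies at chr11:33858576-33892076 on the minus strand between FBXO3 and CAPRIN1, and neither of these passed the threshold in either line. FBXO3 had a change of -0.91 ± 0.10 in U251 at D28 (adjusted p = 1.1e-05), the group in which LMO2 was highest. MAPK3, beside CORO1A, had a change of -0.84 ± 0.13 in U251 at D28 (adjusted p = 0.00021), also under the size required. DTNA, the next gene tested beyond CCDC178 in U251, was lower there at D3 by -1.26 ± 0.18 (adjusted p = 7.9e-05) and at D28 by -1.35 ± 0.18 (adjusted p = 4.2e-05).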

How the data were processed

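RNA of U87 and U251 cells was sequenced from TruSeq RNA libraries. The authors deposited TPM values, 1 table per line, made, according to the methods and the submitters' processing notes, with Trim Galore, STAR (GRCh38) and featureCounts. How TPM was computed and whether strand was used are not given in the sources used here. The methods state a minimum number of reads per sample, but TPM keeps no depth, so the depth of each sample is unknown and no floor is given. 28 libraries were used (13 of U87, 15 of U251), and 2 U87 columns of identical name were left out.

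The log2(TPM + 1) of every gene averaging 0.5 TPM or more across the libraries of a line was fitted with limma 3.58.1 in R 4.3.3 (lmFit, eBayes with a trend), all 5 groups of a line in 1 fit, with Benjamini-Hochberg adjustment over all genes tested (22918 in U87, 23667 in U251). The procedure was tested on simulated data. The authors used edgeR and limma-voom on counts; edgeR was not used here.

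The 5 genes and all gene lists were chosen with earlier results of these data known. Named genes are the 5 members, IRF1 as the check of the treatment, up to 4 genes past the threshold per list and line, the 2 genes most like each member by Pearson's r, and the nearest tested protein-coding neighbours. Lists outside the members are RGS genes, Gi/o and Gq alpha subunits, LIM-only genes, LMO2 partners, coronins, Arp2/3 and cofilin genes, metabolite receptors, the N-degron branch, 9 IFN-γ target genes, and markers of leukocytes, endothelium, glioma lines and neurons. PTPRC, TYROBP, CDH5, VIM, GFAP, SOX2 and any gene named outside these rules were chosen after their values were seen. 1 further gene of the treatment check is not reported here. Positions come from GENCODE 44, in which 60724 of 61471 symbols were found. Figures were made with Python 3.11.15 and matplotlib 3.10.9. Alternatives were a pseudocount of 0.1, a filter of 0 or of 1 TPM, array weights, a replicate block, quantile normalization, scaling by median ratios, fits of 2 groups alone, and leaving out each library, and, added after seeing the data, leaving out all D14 or all D28WO libraries.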

Additional observations from a re-analysis of the deposited data

Results flagged for a closer look

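LMO2 moved in opposite directions in the 2 lines in each group, with every U87 library below and every U251 library above all Untreated libraries of its line. The U251 minus U87 difference of the log2 fold changes was 3.65 (D3), 3.07 (D14), 5.75 (D28) and 2.06 (D28WO). LMO2 was chosen for its fall in U87, so the U87 part of each difference was set by that choice and may be too large. CORO6 at D3 was above Untreated in every U87 library and below it in every U251 library, a difference of -1.54, and LMO4 at D14 likewise, a difference of -0.39. These differences were not tested, and the CORO6 and LMO4 changes at these times were not past the threshold in either line.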

How the results depend on the processing

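The depth of each library is unknown, so no result could be weighed by reads per library, and 2 to 3 libraries a group limit each call. Under quantile normalization the members of U251 past the threshold numbered 1 in place of 3 at D3, 0 in place of 1 at D14, 2 in place of 3 at D28WO and 3 in place of 2 at D28, and the RGS genes called in U251 went from 7 to 4 and the alpha subunits and the Arp2/3 list of U87 from 1 to 0. Fits of only the 2 compared groups gave 1 of the members in place of 3 at D28WO and 0 in place of 1 for D14 against D3 in U251, 3 RGS genes in place of 5 and 1 coronin in place of 2 in U87, and 0 alpha subunits in U251. Array weights gave 0 genes of the Arp2/3 list and 2 of the N-degron branch in U87, and median-ratio size factors 1 LIM-only gene in U87. Without a filter no alpha subunit passed in U251, and a filter at 1 TPM removed its only LMO2 partner. In U251, 1 other coronin passed with median-ratio size factors, with a pseudocount of 0.1 and with quantile normalization. The cause of these shifts was not tested.

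When each library was left out in turn, the U251 members past the threshold numbered 1 to 4 at D3, 0 to 1 at D14, 1 to 3 at D28WO and 0 to 1 for D14 against D3. The ranges of the lists were 1 to 2 for LIM-only genes, 1 to 2 for coronins, 0 to 1 for the Arp2/3 list and 1 to 2 for the N-degron branch in U87, and 0 to 1 for alpha subunits, 1 to 2 for LMO2 partners and 0 to 1 for coronins in U251. Leaving out all D28WO libraries, an alternative added after seeing the data, left 3 RGS genes, 1 LMO2 partner and 0 alpha subunits, LIM-only genes, Arp2/3 genes and N-degron genes in U87. Calls at D28WO were missing there by construction, but the D28 call of GATA3 was lost too, at the same size (1.39). Leaving out all D14 libraries left 1 coronin.

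Changes of sign were found for values with no call. In U251, CORO1A at D14 against Untreated became -0.062 with quantile normalization and -0.089 with array weights, and ran from -0.27 (without Untreated replicate 1) to 0.53 as libraries were left out. LMO2 at D28WO against D14 became 0.17 with quantile normalization and ran from -0.28 to 0.098 (without D28WO replicate 3), with 0.011 without D14 replicate 2. FFAR2 at D14 against D3 became -0.029 with quantile normalization and ran from -0.0051 to 0.13, at D28WO against D28 from -0.17 (without D28WO replicate 1) to 1.18, and at D28WO against D14 from -0.27 (without the same library) to 1.07. In U87, FFAR2 at D14 ran from -2.82 to 0.30 (without D14 replicate 3). IRF1 at D14 ran from -0.28 to 0.0096.

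Samples of the same replicate number did not deviate together, with correlations of -0.06 to 0.05 in U87 and -0.04 to 0.05 in U251, so the numbers were not taken as pairs. With a replicate block, 3 members were past the threshold in U251 at D3 and at D28WO, 2 at D28 and 1 at D14, as without it. Among the named genes the block ended 3 calls, all in U87, namely FLI1 at D28, RGS9 at D3 and HCAR3 at D28WO.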

Other observations

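RGS2, an RGS protein that acts on Gq, was chosen after its values were seen. It was past the threshold as higher at D14 in both lines, from 30.5 ± 5.28 to 61.7 ± 0.503 TPM in U87 (1.01 ± 0.18, limma adjusted p = 0.013, a call lost without Untreated replicate 3 (0.86) or D14 replicate 2 (1.00) or 3 (1.02), after quantile normalization (0.79), with array weights (0.94), with median-ratio size factors (0.83) and with only the 2 compared groups fitted) and from 15.3 ± 3.39 to 35.4 ± 1.56 TPM in U251 (1.18 ± 0.16, adjusted p = 0.00016), and it was not past the threshold in the other groups. The 2 remaining RGS genes past the threshold in U251 were RGS9 at D28 (1.06 ± 0.16, lost without D28 replicate 3 (0.97) and after quantile normalization (0.85)) and RGS17 at D28 (1.22 ± 0.18, adjusted p = 0.00012, lost after quantile normalization (0.70)).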
